A study of Vitis vinifera with 12 samples.

Results

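CYP716A15 is a single gene of grape (Vitis vinifera), found as the row carrying that name in each of the deposited expression tables, 1 of 25210 rows for fruit peel and 1 of 25253 rows for young leaf. The row held no second gene name and the name occurred once in each table. The gene was chosen by its RPKM pattern over these same 6 columns, so its levels are given as a description and nothing about them was tested. The series sequenced messenger RNA from peels and young leaves of Bangalore blue, Red globe and Dilkhush, 3 cultivars said to vary in anthocyanin, the red to blue pigment of grape skin. Its 6 groups were Bangalore blue peel, Red globe peel, Dilkhush peel, Bangalore blue leaf, Red globe leaf and Dilkhush leaf, with 2 libraries each. The deposited tables held 1 value for each cultivar and tissue in RPKM, reads scaled to transcript length and to all mapped reads of the column, so no value has a replicate error and no p-value is given. No treatment, berry stage or plant age was given in the labels used here.

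Enzymes of the CYP716A subfamily are cytochrome P450 monooxygenases that oxidise the carbon skeleton of plant triterpenes. CYP716A15 and its grape relative CYP716A17 are known to convert β-amyrin to oleanolic acid, by oxidising a methyl group step by step to a carboxyl group. CYP716A15 is also known to act on α-amyrin and lupeol, giving ursolic and betulinic acid. Oleanolic acid is the main triterpenoid of the wax that coats the grape berry, and its precursors are made by cyclases from a squalene derivative.

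CYP716A15 stood at 48.3 RPKM in Bangalore blue peel, 104.8 RPKM in Red globe peel and 238.9 RPKM in Dilkhush peel. Young leaves had 3.50 RPKM in Bangalore blue, 7.09 RPKM in Red globe and 60.1 RPKM in Dilkhush. The order of the cultivars was the same in both tissues, with Dilkhush highest and Bangalore blue lowest. Whether neighbouring values in that order differ beyond the spread between libraries could not be judged from 1 value each. In whole tissue, fewer cells that express the gene and less RNA per cell cannot be told apart.

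**Figure D1:**
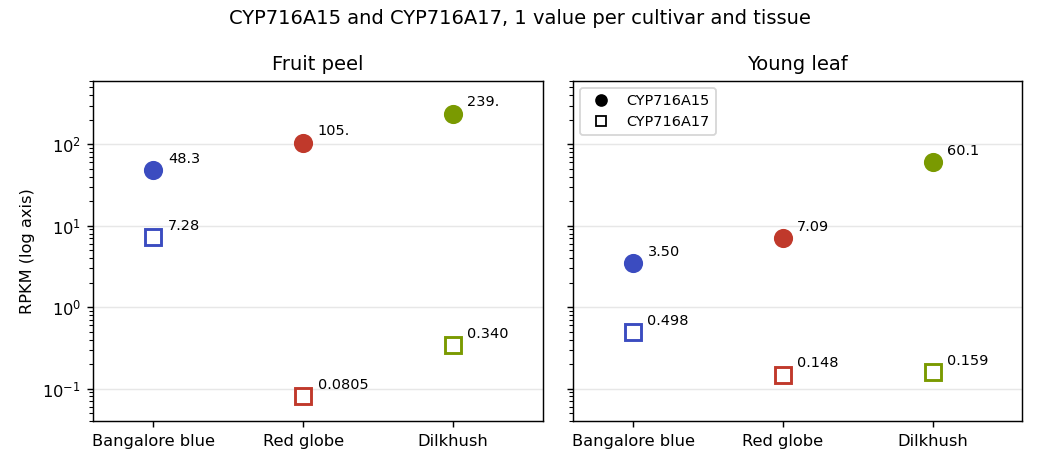
RPKM on a log axis of CYP716A15 (filled circles) and CYP716A17 (open squares) in peel (left) and young leaf (right) of each cultivar, 1 authors' value per point and no error. CYP716A15 climbs across the cultivars to 238.9 RPKM in Dilkhush peel and 60.1 RPKM in Dilkhush leaf, while CYP716A17 is highest in Bangalore blue.

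The peel and leaf values came in separate tables, and no source used here says that they share a scale, so the tissues were set side by side by the place of the row within its own column. In peel CYP716A15 was at rank 2460 from the top in Bangalore blue, rank 931 in Red globe and rank 438 in Dilkhush. It thus lay above 90.2%, 96.3% and 98.3% of the peel rows in that order of cultivars. In leaf it was at rank 14217 in Bangalore blue, rank 11986 in Red globe and rank 1963 in Dilkhush, above 43.7%, 52.5% and 92.2% of rows. The row was therefore high in every peel column and in Dilkhush leaf, and near the middle of all rows in the other leaf columns. Counted only over rows at 1 RPKM or more, it lay above 18.3% of rows in Bangalore blue leaf and 31.4% in Red globe leaf, so its place there depends on including the near-silent rows.

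Relative to the median row of its column, CYP716A15 was 18.4 times the median in Bangalore blue peel, 34.2 times in Red globe peel and 79.8 times in Dilkhush peel. The same ratios were 0.60 in Bangalore blue leaf, 1.17 in Red globe leaf and 10.1 in Dilkhush leaf. The medians were 2.63, 3.06 and 2.99 RPKM in peel and 5.83, 6.04 and 5.95 RPKM in leaf (Bangalore blue, Red globe, Dilkhush). Rows at 0 made up 16.9% to 19.6% of the peel columns and 10.6% to 12.5% of the leaf columns. The medians enter these ratios, and whether their gap between peel and leaf is one of scale is not known. The place of the row was higher in peel than in leaf by 46.5 percentage points in Bangalore blue, by 43.8 points in Red globe and by 6.04 points in Dilkhush. Among the 23137 rows with a unique single name in both tables, 0.93% were displaced towards peel at least that far in Bangalore blue and 1.28% in Red globe. In Dilkhush, where the row already lay above 92.2% of leaf rows and so had little room to rise, 28.1% were.

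**Figure D2:**
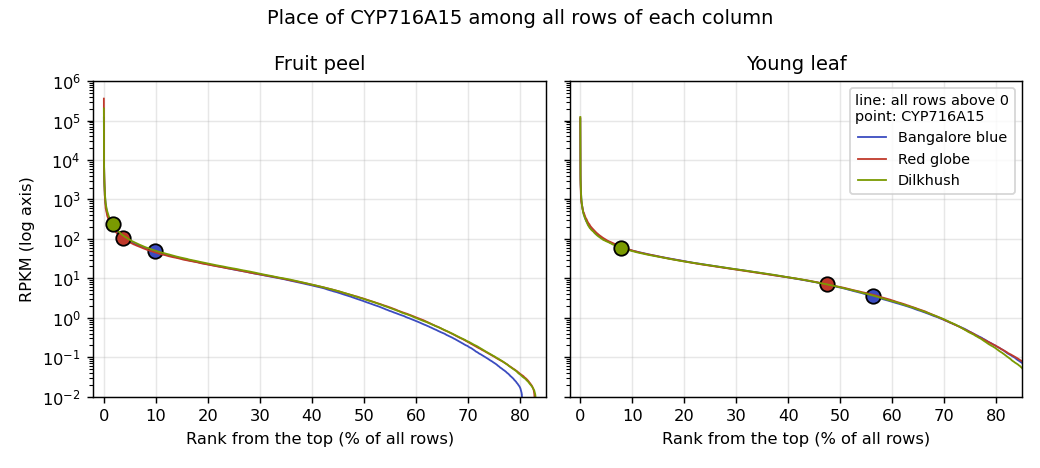
RPKM (log axis) of all rows above 0 against their rank from the top, in percent of all rows, for peel (left) and leaf (right), with 1 line per cultivar and CYP716A15 as a point. The 3 peel points and the Dilkhush leaf point lie to the left, within the top 9.76% of rows, and the Bangalore blue and Red globe leaf points lie near the middle.

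Within a tissue the cultivars were compared by the difference of log2(RPKM + 1), and a row was called when this reached 2 in size, which is 4-fold, with at least 10 RPKM in the higher cultivar. Bangalore blue peel was called lower than Dilkhush peel for CYP716A15, at a log2 difference of -2.28 and a plain RPKM ratio of 0.202. Of the 9551 rows at that floor 6.09% were called in this comparison and 3.73% were called lower in Bangalore blue. CYP716A15 was at rank 281 from the most negative difference, inside the central 95% of rows, which ran from -2.44 to 1.92. Red globe peel was at a log2 difference of -1.18 against Dilkhush peel, not called, where 5.76% of 9594 rows were called. Bangalore blue peel was at -1.10 against Red globe peel, also not called, where 5.25% of 9459 rows were called.

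The differences from Dilkhush were wider in leaf. Bangalore blue leaf was called lower than Dilkhush leaf, at a log2 difference of -3.76 and an RPKM ratio of 0.058. In that comparison 4.05% of 11271 rows were called, and 1.46% were called lower in Bangalore blue. CYP716A15 was at rank 37 from the most negative difference there, outside the central 95% of rows from -1.44 to 2.06. Red globe leaf was called lower than Dilkhush leaf as well, at -2.92 and a ratio of 0.118. In that comparison 5.3% of 11602 rows were called and 2.39% were called lower in Red globe. Of 5 leaf markers 4 were also lower in Red globe leaf than in Dilkhush leaf. The remaining marker, THI1-2, was higher, at 750.8 RPKM against 279.2 RPKM. The share of all rows lower in Red globe leaf was not computed. The summed RPKM of the 5 markers was 2858 in Bangalore blue leaf, 1451 in Red globe leaf and 2793 in Dilkhush leaf, and their part was not tested. CYP716A15 was at rank 143 from the most negative difference, where the median over rows at the floor was 0.03. Bangalore blue leaf and Red globe leaf were both under the floor of 10 RPKM and were at -0.84, in a comparison where 5.21% of 11595 rows were called. Both comparisons with Dilkhush use the same Dilkhush column, so they are not separate views of that cultivar.

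**Figure D3:**
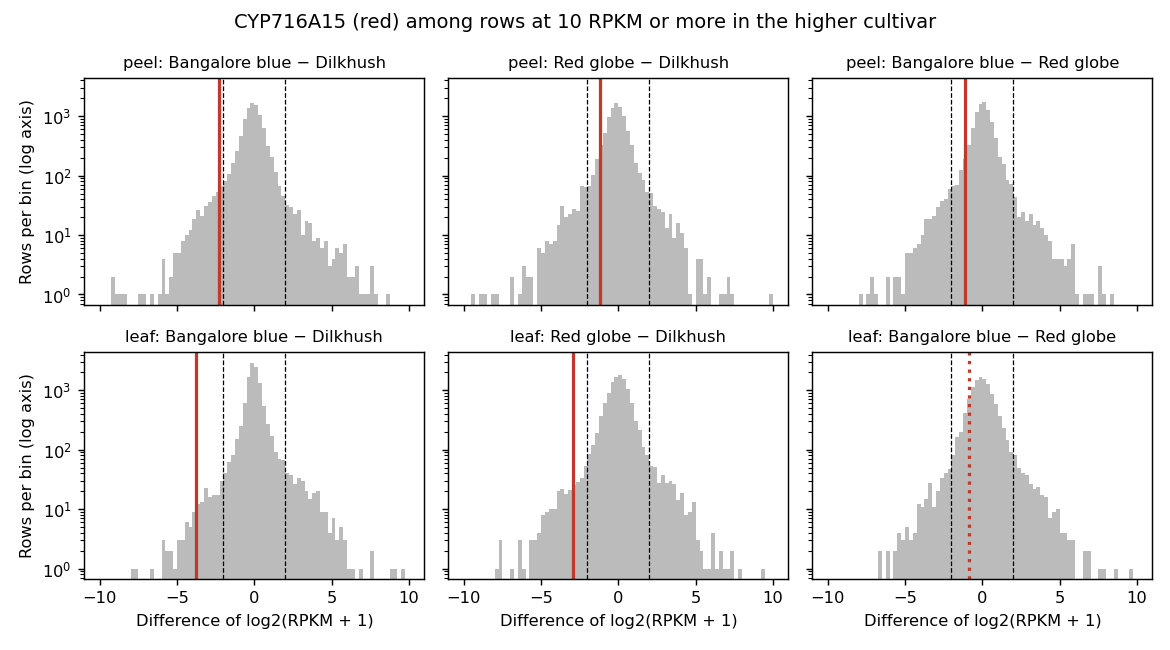
Number of rows (log axis) per bin of the difference of log2(RPKM + 1) for each pair of cultivars, peel above and leaf below, over rows with 10 RPKM or more in the higher cultivar. The red line is CYP716A15, dotted where it was under the floor, and the dashed lines mark a difference of 2 either way. It lies left of the lower dashed line in 3 of the 6 panels, at -2.28, -3.76 and -2.92.

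Set side by side, the log2 difference of Bangalore blue from Dilkhush was -2.28 in peel and -3.76 in leaf, and that of Red globe from Dilkhush was -1.18 in peel and -2.92 in leaf. The difference of Bangalore blue from Red globe was -1.10 in peel and -0.84 in leaf. Whether the cultivar differences depend on the tissue was not tested. The columns themselves differed in a way that bears on scale. Rows named as transfer RNA took 13.9% of summed RPKM in the peel column of Bangalore blue, 33.6% in that of Red globe and 20.7% in that of Dilkhush, with leaf columns from 11.6% to 13.3%. The median log2 difference of all rows at the floor lay between -0.12 and 0.03 in the 6 comparisons. Measured from that median, CYP716A15 was at -2.20 for Bangalore blue against Dilkhush peel and -3.74 for the same pair in leaf.

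The joint pattern was also counted over other rows. The rows counted were the 8218 uniquely named rows with 10 RPKM or more in at least 1 peel column and 1 leaf column. Of these, 20.6% had Dilkhush above Red globe above Bangalore blue in peel, and 9.54% had that order in leaf. In both tissues 240, or 2.92%, had it, an order taken from CYP716A15 itself. Rows 4-fold lower in Bangalore blue than in Dilkhush numbered 240 in peel and 61 in leaf, and 25 were in both lists, 10.4% of the peel list and 41.0% of the leaf list. The peel list made up 2.92% and the leaf list 0.74% of the 8218 rows. CYP716A15 was 1 of the 25, and 1 of 8 that also had the full order in both tissues.

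GFH2 was the other row with a symbol among those 25, singled out after its values were seen. It was 12.8 RPKM in Bangalore blue peel, 34.1 in Red globe peel and 171.7 in Dilkhush peel. In leaf GFH2 was 21.2 RPKM in Bangalore blue, 25.8 RPKM in Red globe and 117.1 RPKM in Dilkhush. It shared the order of the cultivars, but unlike CYP716A15 its leaf value exceeded its peel value in Bangalore blue, on scales not known to be shared between the tables.

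CYP716A17, the close relative, was the only other CYP716A row. It was 7.28 RPKM in Bangalore blue peel, 0.081 RPKM in Red globe peel and 0.34 RPKM in Dilkhush peel. In leaf CYP716A17 was 0.50 RPKM in Bangalore blue, 0.148 RPKM in Red globe and 0.159 RPKM in Dilkhush. Its highest value was thus in the peel of the cultivar where CYP716A15 was lowest, and it was below 1 RPKM in the remaining 5 columns. Bangalore blue peel differed in CYP716A17 by 2.63 from Dilkhush peel and by 2.94 from Red globe peel on the log2 scale, past 4-fold but below the floor of 10 RPKM, so neither was called. The plain RPKM ratios were 21.4 against Dilkhush peel and 90.4 against Red globe peel, and with a pseudocount of 0.1 the log2 differences were 4.07 and 5.35.

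CYP716A15 had the larger RPKM of the pair in all 6 columns. CYP716A17 amounted to 15.1% of the CYP716A15 value in Bangalore blue peel, 0.077% in Red globe peel and 0.142% in Dilkhush peel. In leaf it amounted to 14.2% in Bangalore blue, to 2.09% in Red globe and to 0.264% in Dilkhush. The Bangalore blue columns thus gave nearly the same ratio in both tissues, at levels of CYP716A15 far apart. The leaf ratio rests on a CYP716A17 value of 0.50 RPKM, which is near the floor. How reads matching both genes were shared out is not given in the sources used here, so the split between the 2 rows is uncertain. Summed over the pair, CYP716A15 made up 86.9% of the RPKM in Bangalore blue peel and 87.6% in Bangalore blue leaf. It made up 98.0% in Red globe leaf and more in the other columns.

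CYP716A15 and CYP716A17 lie near each other on the same chromosome in the RefSeq gene table of assembly ASM3070453v1. That table was used for gene order only, since the build behind the RPKM values is not given in the sources used here. It places 8 genes between them, of which 3 are protein-coding. Those 3 were at or near 0: 2 were listed at 0 in all 6 columns, and the highest value of LOC100243266 was 0.204 RPKM, in Red globe peel.

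On the far side of CYP716A15 the 5 nearest protein-coding genes were all expressed, between 4.90 and 79.1 RPKM. LOC100263908, directly beside it, was 35.9 RPKM in Bangalore blue peel, 48.2 in Red globe peel and 51.2 in Dilkhush peel. In leaf LOC100263908 was 41.6 RPKM in Bangalore blue, 32.3 RPKM in Red globe and 37.4 RPKM in Dilkhush. Wider cultivar differences were seen in LOC100246757, at 79.1 RPKM in Bangalore blue peel, 37.1 in Red globe peel and 49.95 in Dilkhush peel. LOC100233071 was 27.3 RPKM in Bangalore blue leaf, 14.5 in Red globe leaf and 30.4 in Dilkhush leaf. Beyond CYP716A17, 4 of the 5 nearest protein-coding genes had a row, and 2 of these were below 1 RPKM in all columns. Over the 12 neighbours with a row, 5 of which were below 1 RPKM in all columns, the largest cultivar difference was 1.07 on the log2 scale. That size is close to the peel differences of -1.10 and -1.18 of CYP716A15, and below its called differences. None of the 12 was called, which with 4.05% to 6.09% of rows called in a comparison says nothing particular about the locus. The window was chosen after the values were seen.

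**Figure D4:**
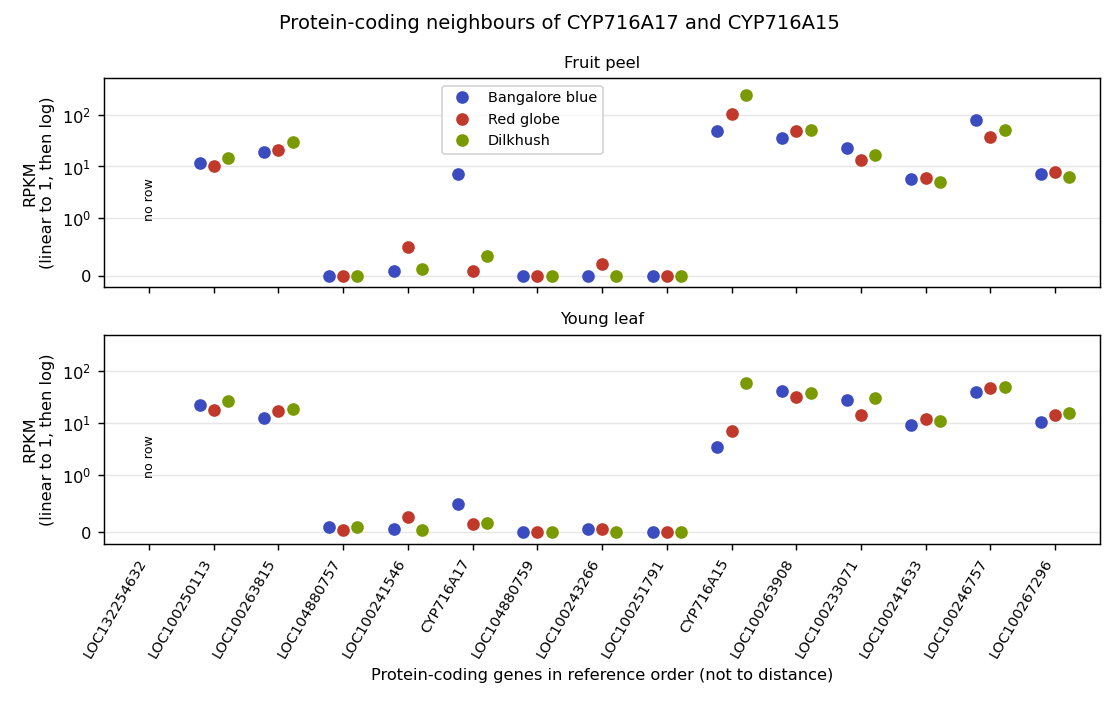
RPKM (linear up to 1, then log) of the protein-coding genes around CYP716A17 and CYP716A15, in reference order and not to distance, for peel (above) and leaf (below), with 1 point per cultivar. The 3 genes between the pair lie at or near 0, the 5 genes to the right of CYP716A15 lie between 4.90 and 79.1 RPKM, and CYP716A15 spans 3.50 to 238.9 RPKM.

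Rows whose profile over the 6 columns was most like that of CYP716A15 were sought among 12034 uniquely named rows with 10 RPKM or more in at least 1 column. Likeness was the root-mean-square difference of log2(RPKM + 1) after centring each row on its own mean, where 0 is an identical profile. The nearest was LOC104879437 at 0.78, with a Pearson correlation of 0.95, followed by LOC100262263 at 0.78 with a correlation of 0.94, both without a symbol. LOC104879437 was 7.43 RPKM in Bangalore blue peel, 15.4 in Red globe peel and 11.8 in Dilkhush peel. Its leaf values were 0.506 RPKM in Bangalore blue, 0.215 RPKM in Red globe and 6.94 RPKM in Dilkhush. Red globe was thus its highest peel and its lowest leaf, unlike in CYP716A15. Differences among values below 1 RPKM are compressed by the pseudocount of 1. LOC100262263 was 35.3 RPKM in Bangalore blue peel, 38.0 in Red globe peel and 40.1 in Dilkhush peel. In leaf LOC100262263 was 0.215 RPKM in Bangalore blue, 0.120 RPKM in Red globe and 13.7 RPKM in Dilkhush. As for CYP716A15, Dilkhush leaf stood well above the other leaves, but its peel columns were nearly level. The 6 points come from 3 cultivars and share their processing, and 97 of the 12034 rows had a correlation of at least 0.9 with CYP716A15.

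Of the 196 candidate rows with a symbol the nearest 5 were METK4, G1, PL1, HT6 and TIL, at distances of 1.08, 1.12, 1.23, 1.25 and 1.26. They ranked from 22 to 89 among all candidates, so rows without a symbol were closer. METK4, an S-adenosylmethionine synthase, was 1240 RPKM in Bangalore blue peel, 1920 in Red globe peel and 2566 in Dilkhush peel. Its leaf values were 193.3 RPKM in Bangalore blue, 271.4 RPKM in Red globe and 284.3 RPKM in Dilkhush, the same order at a far narrower spread.

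G1 had the highest correlation of the 5, at 0.97. It was 242.9 RPKM in Bangalore blue peel, 376.6 in Red globe peel and 411.3 in Dilkhush peel, and 78.3 RPKM in Bangalore blue leaf, 105.4 in Red globe leaf and 359.7 in Dilkhush leaf. G1 thus also had Dilkhush leaf far above the other leaves. PL1, a pectate lyase that cuts cell wall pectin, HT6, a hexose transporter, and TIL, a temperature-induced lipocalin, had correlations between 0.80 and 0.81. In leaf PL1 was 65.9 RPKM in Bangalore blue leaf, 101.0 in Red globe leaf and 95.1 in Dilkhush leaf, and TIL was 488.6, 316.8 and 431.7 RPKM in the same order. HT6 varied least of the 3 in leaf, at 33.0 RPKM in Bangalore blue, 39.0 RPKM in Red globe and 32.8 RPKM in Dilkhush.

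**Figure D5:**
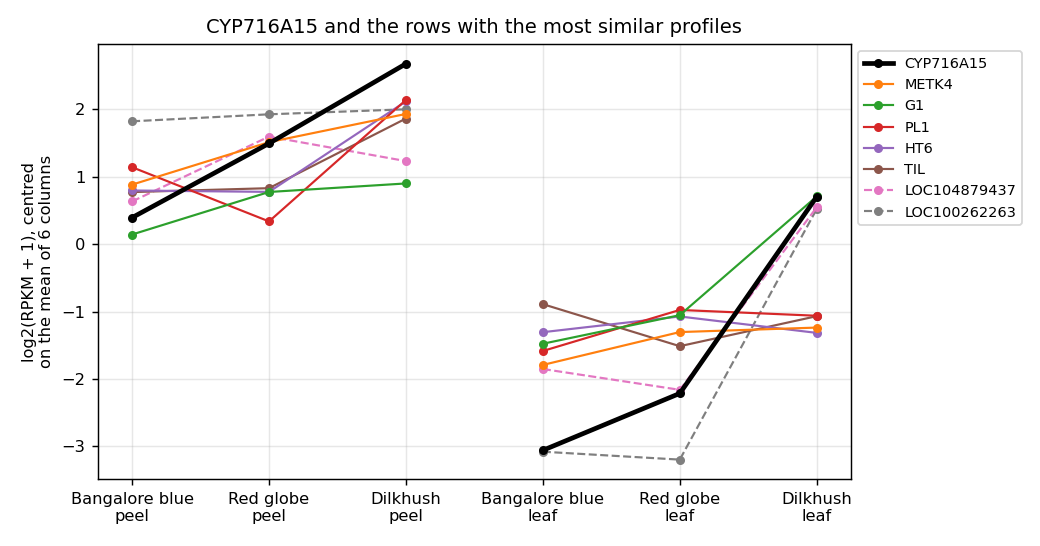
log2(RPKM + 1) centred on each row's mean over 6 columns, for CYP716A15 (black) and the 7 rows nearest to it by rule (solid with a symbol, dashed without), peel columns left and leaf columns right. The rows without a symbol and G1 share the step up to Dilkhush leaf, whereas METK4, PL1, HT6 and TIL vary less across leaves.

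Other genes of the pathway were looked for by symbol. Lists for mevalonate and squalene synthesis, oxidosqualene cyclases, sterols and cutin matched no symbol, so those steps were not analysed here. The wax list matched 1 of 14 symbols. This was MYB30, named for a transcription factor that in Arabidopsis activates wax synthesis genes. MYB30 was 110.0 RPKM in Bangalore blue peel, 96.3 in Red globe peel and 81.2 in Dilkhush peel, and 57.0 RPKM in Bangalore blue leaf, 23.96 in Red globe leaf and 14.6 in Dilkhush leaf. Its order was the reverse of that of CYP716A15 in both tissues, with the widest difference at 1.90 between Bangalore blue and Dilkhush leaf, and it was not called in any comparison.

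Among the other named cytochrome P450 rows, a set added by symbol, CYP716A15 came after HPLA in Red globe and Dilkhush peel and after HPLA and BR6OX1 in Bangalore blue peel. It was the lowest of these rows in Bangalore blue leaf, where the others ranged from 28.1 to 64.7 RPKM, and in Red globe leaf, where they ranged from 12.5 to 59.2 RPKM, and the highest in Dilkhush leaf. HPLA, a hydroperoxide lyase that makes green-leaf aldehydes, was 786.7 RPKM in Bangalore blue peel, 343.3 in Red globe peel and 311.0 in Dilkhush peel. BR6OX1, an oxidase of brassinosteroid synthesis, was 50.0 RPKM in Bangalore blue peel, 10.6 in Red globe peel and 35.6 in Dilkhush peel. In leaf BR6OX1 was 41.0 RPKM in Bangalore blue, 16.9 RPKM in Red globe and 42.6 RPKM in Dilkhush. The flavonoid hydroxylases F3'H and F3'5'H reached 42.8 and 37.4 RPKM in their highest peel column. None of these 4 rows had the order of CYP716A15 in both tissues.

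Marker rows were set beside the labelled tissues by their place within each column. Of 11 ripening fruit rows 10 had every peel place above every leaf place, and of 5 leaf marker rows 4 had every leaf place above every peel place. Among those 10, the rows of GRIP4, GRIP61 and TL3 held different sets of gene names in peel and leaf, so their places compare unlike rows. Of the 4 rows tied to anthocyanin colour 1 was higher in every peel column and 3 overlapped between tissues. The share of all rows whose places separate fully by tissue was not computed, so these counts are a description only. CYP716A15 did not separate fully by tissue, since its place in Dilkhush leaf, 92.2%, was above its place in Bangalore blue peel, 90.2%. Dilkhush peel, where CYP716A15 was highest, was the lowest peel column in all 4 anthocyanin rows. Their summed RPKM was 2696 in Bangalore blue peel, 1637 in Red globe peel and 34.4 in Dilkhush peel. Red globe peel was the lowest peel column in 4 of the 5 leaf markers. The summed RPKM of those 5 was 883.3 in Bangalore blue peel, 501.8 in Red globe peel and 816.5 in Dilkhush peel. Among the leaf columns, Red globe stood apart in the marker rows. Of the 5 leaf markers 4 were lowest in Red globe leaf and THI1-2 was highest there, and the summed RPKM of the 5 was 2858 in Bangalore blue leaf, 1451 in Red globe leaf and 2793 in Dilkhush leaf. CHLH, a subunit of the enzyme that puts magnesium into chlorophyll, was 596.8 RPKM in Bangalore blue leaf, 137.6 in Red globe leaf and 628.9 in Dilkhush leaf. All 4 anthocyanin rows were highest in Red globe leaf among the leaves, with GST4 at 2.58 RPKM in Bangalore blue leaf, 161.6 in Red globe leaf and 53.2 in Dilkhush leaf. The leaf values of these rows stood beside the called difference of -2.92 between Red globe leaf and Dilkhush leaf in CYP716A15. Bangalore blue leaf was at -3.76 against Dilkhush leaf in CYP716A15. In that pair the 5 leaf markers summed to 2858 against 2793 RPKM, and the 4 anthocyanin rows to 9.08 against 70.9 RPKM. The part of the marker rows in either difference was not tested. Markers of epidermal or other cell types within the peel were not analysed here, so their part in these levels was not tested.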

How the data were processed

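Leaf and peel RNA, isolated with a column kit for plants, was turned into directional mRNA libraries, per the labels' protocols. The submitters' processing notes name TopHat2 2.1.1 and Cufflinks 2.2.1 without their roles. The deposited values are RPKM, 1 column per cultivar in a peel and a leaf table, per the file headers. Not given in the sources used here: genome build, annotation, treatment of shared reads, and the merging of a group's 2 libraries. RPKM depends on all reads of a column. Depth is unknown: low values showed no common step of 1 read, so no interval or detection limit is given.

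Columns were tied to groups by the initials in the titles. With 1 value per group no model was fitted. Differences, ranks and profiles were computed with Python 3.11.15, pandas 2.3.3 and numpy 2.4.6 on whole tables, using a pseudocount of 1. The 4-fold call and the search for similar profiles were tested on planted changes in simulated data, and the other steps were not. The spread simulated for the call was narrower than that of these data. The row choice, the gene lists and the rules were set with earlier results of these data known. Named genes were both CYP716A rows, matched list rows, and the 5 rows with and 2 without a symbol whose profiles were nearest. List medians were not computed, since no pathway list had 3 rows. The alternatives were a pseudocount of 0.1, other floors, quantile, equal-median and equal-total scaling, and a correlation in place of distance. Where a neighbour had several rows, the highest value per column was used.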

Additional observations from a re-analysis of the deposited data

How the results depend on the processing

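The 6 log2 differences of CYP716A15 kept their sign and their call with a pseudocount of 0.1, quantile normalization, equal medians and an equal total without transfer RNA rows. Bangalore blue against Dilkhush ranged from -2.30 to -2.11 in peel and from -4.06 to -3.76 in leaf, and Red globe against Dilkhush from -1.19 to -0.90 in peel and from -3.07 to -2.82 in leaf. The equal total moved the median of all rows to 0.06 against -0.12 as deposited (Red globe against Dilkhush peel), to 0.15 against 0.03 (the same pair in leaf) and to -0.19 against -0.05 (Bangalore blue against Red globe leaf). Without a floor, rows called numbered 878 against 582 (Bangalore blue and Dilkhush peel), 797 against 497 (Bangalore blue and Red globe peel) and 715 against 457 (Bangalore blue and Dilkhush leaf), since more rows enter. CYP716A17 was then called for both Bangalore blue peel comparisons, at 2.63 and 2.94, a setting chosen after seeing the data, and 2 rather than 1 triterpene P450 rows counted as measured in leaf. Over rows at 1 RPKM or more, CYP716A15 lay above 83.3%, 93.9% and 97.1% of peel rows and 18.3%, 31.4% and 88.8% of leaf rows (Bangalore blue, Red globe, Dilkhush), since fewer rows enter. Ranked by correlation, 2 of the 7 most similar rows, METK4 and G1, were kept, and 5 of 7 with a pseudocount of 0.1 or with 1 RPKM required in every column. LOC100262263 was not kept in any of these settings, and LOC104879437 was kept only with the pseudocount of 0.1. No paired analysis was possible because each cultivar and tissue has 1 column with no replicate number, and no replicate could be left out.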
